A study of Mus musculus with 12 samples.

Results

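The regions described here are 1359 places in the mouse genome where FRA-1 peaks were called in macrophages given LPS and in macrophages given apoptotic cells, but not in unstimulated macrophages. They were selected on the deposited peak scores of the FRA-1 ChIP-seq libraries themselves. All peak segments of the 3 conditions that overlapped or touched were merged, which gave 300608 regions. A region had a call in a replicate where any of its segments carried a score there, and those kept had a call in at least 2 LPS replicates, in at least 2 apoptotic cell replicates and in no unstimulated replicate. They made up 0.452% of all regions. The presence of calls in treated libraries and their absence in unstimulated libraries is therefore what chose these regions, and it is given below as a description and not as a finding.

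FRA-1, encoded by Fosl1, is a FOS family subunit of the AP-1 transcription factor. It has no strong transactivation domain of its own, pairs with JUN proteins, and binds the AP-1 motif as a dimer. LPS, a component of the outer membrane of Gram-negative bacteria, is sensed by macrophages through TLR4 and drives the MAP kinase and NF-kB pathways that switch on inflammatory genes. Macrophages also clear dying cells, a process called efferocytosis. Receptors such as the TAM kinases bind phosphatidylserine on the dying cell through bridging proteins, and the RAC GTPases then remodel actin around it.

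The study precipitated FRA-1 from chromatin of peritoneal macrophages that were left unstimulated (UT) or were exposed for 1 h to LPS or to apoptotic cells (Apop). Each condition had 3 FRA-1 libraries, and the sample records name the same 3 mice in all of them. Per these records the mice were 8 weeks old and of a mixed 129 and C57Bl6 background, and the cells were elicited with thioglycollate and harvested by lavage 72 h later, whereas the design text names C57Bl/6 mice and plain lavage. No deletion or transgene is named for any group. The LPS dose is 1 µg/mL in the sample records and 10 µg/mL in the design text. Apoptotic cells were added at a ratio of 1:5. Their source is not given, and nothing in the sources used here says whether their DNA was removed before precipitation. Binding data hold no expression markers, so the cell type could not be checked. Replicates are numbered below by the order of their columns within each condition (UT1 to UT3, LPS1 to LPS3, Apop1 to Apop3), which carry no mouse label.

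Some libraries stood apart from others of their condition. Peak numbers ran from 20981 to 28314 in UT, from 39728 to 63010 in LPS and from 31501 to 79474 in Apop. The smallest peak was 158 to 172 bp wide in UT1, UT2, LPS2, Apop1 and Apop2, called the wide class here, and 104 to 116 bp in UT3, LPS1, LPS3 and Apop3, called the narrow class. The classes cut across the conditions: 1 of the UT replicates was narrow against 2 of the LPS replicates and 1 of the Apop replicates. Read depth per library was unknown, and the scores were given separately for each replicate, so scores of different replicates may not share a scale and percentiles were taken within a replicate.

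Few of the regions overlapped a promoter window, and promoter sequences are shown for those that came closest, because there a gained region reached into the bases around a listed gene start. The RefSeq promoter table used here (build GRCm38.p6) holds 32851 windows, each from 250 bases before to 50 bases after a listed start, and 7 of them (0.0213%) were overlapped by a gained region. The overlapped windows belonged to Gm11963 and Gm39603, which are non-coding RNA genes, and to Sag, Frat1, Hpf1 and Entpd1. Gm39603 had 2 such windows at neighbouring starts. Of the 1312 gained regions on chromosomes with listed starts, 6 met a window, a share of 0.457% (95% Wilson interval 0.210% to 0.994%). Among all regions of the series the share was 0.490%, so gained regions met promoter windows about as often as any other region did. The windows do not cover every gene, as some protein-coding genes had no listed start.

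The 250 bases before the start are printed below for the 4 genes with the longest overlaps, 5′ to 3′ on the gene's strand, with the part covered by the gained region in capitals. The windows lie at chr11:5485630-5485879 (plus strand, Gm11963), chr19:41829720-41829969 (plus strand, Frat1), chr1:87803430-87803679 (plus strand, Sag) and chr11:20029810-20030059 (minus strand, Gm39603).
Gm11963: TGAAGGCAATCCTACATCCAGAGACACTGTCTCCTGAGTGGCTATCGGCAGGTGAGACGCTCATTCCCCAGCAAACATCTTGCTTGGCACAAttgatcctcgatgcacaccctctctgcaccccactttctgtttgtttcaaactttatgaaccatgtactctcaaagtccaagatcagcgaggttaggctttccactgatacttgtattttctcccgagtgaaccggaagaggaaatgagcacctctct
Frat1: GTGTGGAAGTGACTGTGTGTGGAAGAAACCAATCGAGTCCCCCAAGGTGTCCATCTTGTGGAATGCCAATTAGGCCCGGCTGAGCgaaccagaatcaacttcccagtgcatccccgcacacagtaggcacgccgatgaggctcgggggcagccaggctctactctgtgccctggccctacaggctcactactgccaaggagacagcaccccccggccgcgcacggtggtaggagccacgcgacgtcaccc
Sag: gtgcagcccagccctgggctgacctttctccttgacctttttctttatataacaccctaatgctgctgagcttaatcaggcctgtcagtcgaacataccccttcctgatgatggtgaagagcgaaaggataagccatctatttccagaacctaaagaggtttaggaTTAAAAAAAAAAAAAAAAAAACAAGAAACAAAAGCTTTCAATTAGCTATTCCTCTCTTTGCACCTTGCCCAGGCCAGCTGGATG
Gm39603: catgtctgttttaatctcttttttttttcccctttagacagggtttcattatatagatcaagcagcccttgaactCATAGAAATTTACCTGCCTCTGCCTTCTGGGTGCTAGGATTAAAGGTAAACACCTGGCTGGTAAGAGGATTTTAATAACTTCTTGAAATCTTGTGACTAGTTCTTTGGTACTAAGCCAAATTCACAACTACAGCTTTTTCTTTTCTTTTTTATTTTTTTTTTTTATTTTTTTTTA

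The AP-1 motif, spelled TGANTCA and the same on both strands, was in 0 of the 7 overlapped windows and in 7.81% of all 32851 windows. The related CRE motif, TGACGTCA, was in 0 of the 7 and in 1.79% of all windows. Neither spelling overlaps the other. At such background shares a count of 0 in 7 windows is likely, so it shows no depletion. The windows hold only part of most of the regions that met them, 9 of 417 bp at Entpd1 and 92 of 214 bp at Gm11963 for example, so the motif content of the gained regions themselves was not examined, as no genome sequence was given.

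At Gm11963 the gained region, chr11:5485508-5485721, covered 92 bp of the window and had a call in all 6 treated replicates. Its scores were 290.79, 126.89 and 284.82 in LPS1 to LPS3 and 91.25, 262.7 and 242.95 in Apop1 to Apop3. Every treated replicate thus had a peak here. At Frat1, which encodes a GSK3-binding regulator of WNT signalling, the region covered 85 bp of the window and scored 168.74 in LPS1, 275.14 in LPS3, 129.28 in Apop1 and 66.01 in Apop3. At Sag, which encodes the arrestin of photoreceptor cells, the region spanned a listed start. This start lies within the gene, whose 5′ end is at position 87798143. The scores were 178.77 in LPS1, 171.56 in LPS3, 129.52 in Apop1 and 146.98 in Apop3. LPS2 and Apop2 had no peak at either gene. Hpf1, whose protein directs ADP-ribosylation to serine at DNA breaks, had a region that entered its window by 21 bp, scoring 283.31 in LPS1, 394.76 in LPS3, 164.34 in Apop1, 190.45 in Apop2 and 178.41 in Apop3.

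Entpd1 encodes CD39, the cell surface enzyme that breaks down extracellular ATP, and it carried 2 gained regions. Both lay inside the gene. One, chr19:40659112-40659528, lay 450 bp before a listed start within the gene, measured to its centre, and entered the promoter window by 9 bp. It scored 308.11 in LPS1, 403.71 in LPS3, 115.69 in Apop1, 76.96 in Apop2 and 163.65 in Apop3. The other, chr19:40707063-40707225, scored 252.11 in LPS1, 264.87 in LPS3, 124.89 in Apop2 and 135.94 in Apop3. At both regions LPS2 had no peak, and LPS1 and LPS3 stood at higher ranks among their own peaks than the Apop replicates did. The LPS1 and LPS3 scores were at the 93.2nd and 94.0th percentile at the first region and at the 87.8th and 74.1st at the other. The Apop percentiles were 41.6, 10.6 and 85.5 at the first and 37.0 and 73.2 at the other. None of this is particular to Entpd1. Over all gained regions the median percentiles were also higher in LPS1 and LPS3 than in the Apop replicates, and most regions lacked an LPS2 call.

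The regions were shared unevenly over the treated replicates. LPS3 had a call in all 1359 and LPS1 in 1349 (99.3%), but LPS2 in only 236 (17.4%). The Apop replicates were closer to each other, with 1112 (81.8%) in Apop1, 943 (69.4%) in Apop2 and 973 (71.6%) in Apop3. Only 79 regions (5.81%) had a call in all 6 treated replicates, and 902 (66.4%) had the minimum of 2 LPS and 2 Apop calls. The commonest pattern, LPS1, LPS3, Apop1 and Apop3, held 346 regions, followed by LPS1, LPS3, Apop1 and Apop2 with 337 and by LPS1, LPS3 and all Apop replicates with 231. Regions without an LPS1 call numbered 10. The LPS side of the set thus rested on LPS1 and LPS3, whereas each pair of Apop replicates contributed.

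To see the same calls in libraries that had no part in the choice, regions were chosen again from 2 replicates of each condition and looked up in the replicates left out. The 27 ways of leaving out 1 of each condition gave 9 values for each replicate, which overlap in the libraries that chose them. Regions chosen in this way had a peak in LPS1 in 98.3% of cases on average (range 97.4% to 99.5%) and in LPS3 in 99.95% (99.8% to 100%), against 15.3% and 20.9% of all regions. In LPS2 the share was 25.6% (19.2% to 35.3%), against 13.2% of all regions. It was 72.1% in Apop1, 58.0% in Apop2 and 63.3% in Apop3, where 13.6%, 10.5% and 26.4% of all regions had a peak. Peaks in left-out treated libraries were thus more frequent at the chosen regions than at regions in general, least so in LPS2. Most regions in general, 269723 of them, had a call in only 1 replicate, whereas the chosen ones had calls in 2 LPS and 2 Apop replicates. Regions with several calls can exceed that baseline in any further library, and the left-out unstimulated libraries did so too. The comparison therefore cannot tell whether the higher shares belong to the treatments.

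Left-out unstimulated libraries had peaks at the chosen regions more often than at regions in general, and the gap was smaller in UT1 and UT2 than in UT3. Regions chosen without UT1 had a peak in it in 14.4% of cases (9.75% to 17.0%), and regions chosen without UT2 in 16.5% (10.5% to 21.5%), whereas 8.43% and 6.98% of all regions had one. Regions chosen without UT3 had a peak in UT3 in 77.4% of cases (67.7% to 82.6%), against 9.41% of all regions. Averaged over replicates, the left-out share was 36.1% ± 35.7 (SD, n = 3) in UT, 74.6% ± 42.4 in LPS and 64.4% ± 7.13 in Apop. The values of UT and of the treated groups overlapped, since UT3 lay above LPS2 and above all Apop replicates. No test was run on these shares, because the libraries that chose the regions are shared between them.

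**Figure D1:**
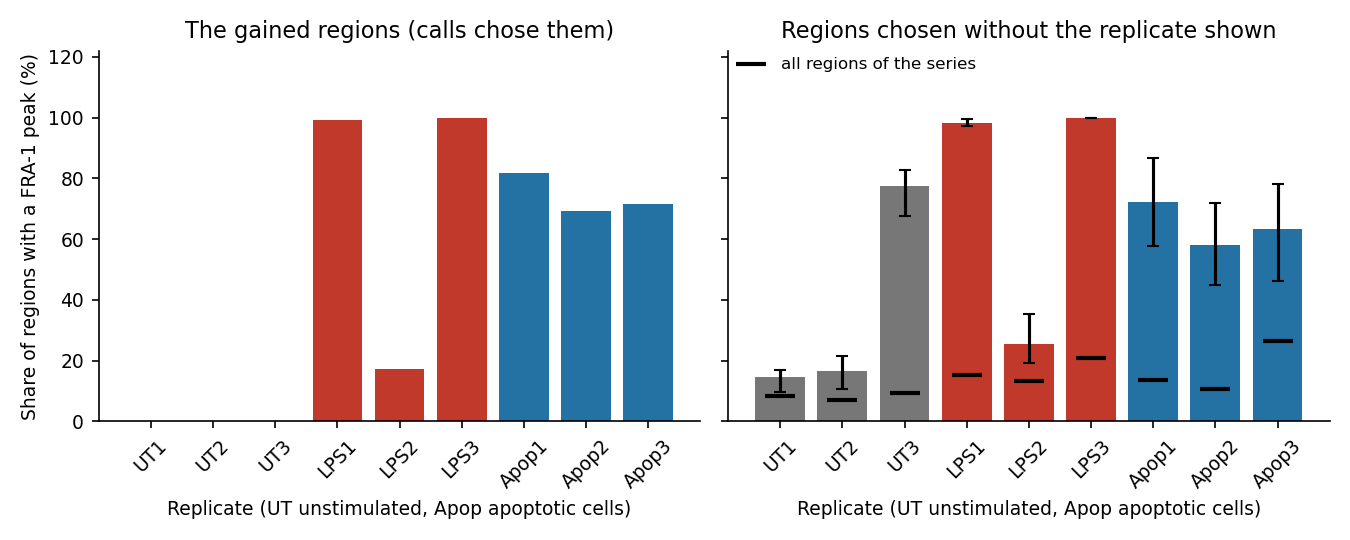
Share of regions with a FRA-1 peak (%, vertical axis) in each replicate: left, the 1359 regions, whose calls chose them; right, regions chosen from 2 replicates of each condition without the replicate shown, as the mean of 9 ways (bars) with the lowest and highest (whiskers), and the share of all 300608 regions (black dashes). UT3, at 77.4%, stood with LPS and Apop replicates, and LPS2, at 25.6%, was nearer to UT1 and UT2.

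The weight of UT3 was seen again among all regions with calls in both treatments. There were 7207 regions with a call in at least 2 LPS and at least 2 Apop replicates. Of these, 1359 (18.9%) had no unstimulated call, 2489 (34.5%) had 1, 1706 (23.7%) had 2 and 1653 (22.9%) had all 3. The single unstimulated call of the 2489 was in UT3 in 2228 (89.5%), in UT1 in 130 and in UT2 in 131. Most regions bound in both treatments thus had a peak in some unstimulated library, and for the largest part of those with a single one it was UT3.

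When UT3 was left out, 3587 regions met the rule in place of 1359. When LPS2 was left out the number was 1349, without LPS1 it was 236 and without LPS3 it was 226. Leaving out Apop1, Apop2 or Apop3 gave 557, 726 or 696. With UT3 and LPS2 left out together, 3569 regions met the rule. The rule still asked for 2 LPS and 2 Apop calls, so leaving out a treated replicate could only remove regions. Leaving out an unstimulated one could only add them. The numbers without LPS1 and without LPS2 equal the gained regions called in LPS2 and in LPS1, and so restate the calls that chose the set. Among the unstimulated libraries UT3 kept out the most regions, as 1489 met the rule without UT1 and 1490 without UT2.

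How many replicates had a peak at a region moved with these shares. Among regions with a call in exactly 4 of the 9 libraries, 902 of 2724 (33.1%) were gained with both treatments and 50.7% had a UT3 peak. Among those with 5 calls, 378 of 1892 (20.0%) were gained and 72.0% had a UT3 peak. Among those with 6 calls, 79 of 1436 (5.50%) were gained and 86.1% had a UT3 peak. UT1 had a peak at 6.57%, 11.05% and 18.1% of the regions with 4, 5 and 6 calls. A rise with the number of calls is built in, since every library is at 100% among regions with 9 calls. The fall of the gained share is constrained too, as at 6 calls only regions with all 6 treated replicates qualify. The libraries differed in how early they rose. UT1 and UT2 were still at 31.5% and 34.9% where UT3 was at 94.9%, among regions with 7 calls.

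**Figure D2:**
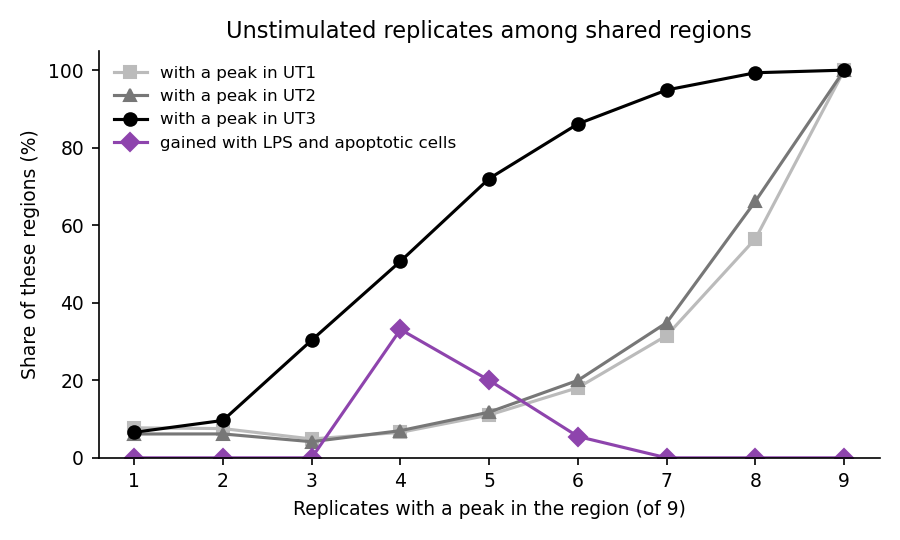
Share of regions (%, vertical axis) with a peak in UT1, UT2 or UT3, and share gained with LPS and apoptotic cells, by the number of the 9 replicates with a peak in the region (horizontal axis). At 4 calls UT3 had a peak in 50.7% and UT1 in 6.57%, and the rule allows gained regions only at 4 to 6 calls.

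The peak width class moved with the gained regions too. Within the wide class, 723 regions had a call in LPS2, Apop1 and Apop2 and none in UT1 and UT2. Of these, 128 were gained by the full rule and 591 (81.7%) had a peak in UT3, the unstimulated library of the other class. Within the narrow class, 2070 regions had a call in LPS1, LPS3 and Apop3 and none in UT3. Of these, 967 were gained by the full rule and 285 (13.8%) had a peak in UT1 or UT2. Gained regions were thus found within both classes. The part of the width class in the number of regions was not tested.

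Peaks at the gained regions were narrow and stood at different ranks in different libraries. Their median width was 114 bp in LPS1, 115 bp in LPS3 and 111 bp in Apop3, and 172, 170 and 163 bp in LPS2, Apop1 and Apop2. In LPS1, 82.0% of the gained peaks were within 10 bp of the smallest width of that library, compared with 47.5% of all its peaks. The same shares were 79.9% and 31.8% in Apop1, 75.4% and 31.1% in Apop2, 67.4% and 24.9% in LPS2, and 63.2% and 15.3% in Apop3. LPS3 went the other way, with 45.4% of the gained peaks and 55.8% of all peaks. In 5 of the 6 treated replicates the gained peaks were thus more often of nearly the smallest width than peaks in general.

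Their median score was at the 80.7th percentile of all peaks in LPS1, the 83.3rd in LPS3 and the 75.3rd in Apop3. It was at the 44.9th percentile in LPS2, the 56.1st in Apop1 and the 49.9th in Apop2. The gained peaks thus ranked high in the narrow libraries and near the middle in the wide ones. These ranks are among all peaks of a library, and most regions of the series had a call in only 1 replicate. Neither ranks nor peak widths were compared with those at other regions with several calls. In Apop1, 305 of the 1112 gained peaks (27.4%) carried 129.52, the commonest score of that library, which 14.4% of all its peaks carried. In Apop2, 246 of 943 (26.1%) carried 133.78, against 14.4% of all its peaks, and in LPS2, 66 of 236 (28.0%) carried 126.89, against 13.3%. Equal scores shared by that many peaks leave no order among them.

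Merging puts overlapping peaks into 1 region, so peaks of different libraries had to lie together, but how their centres and edges lined up was not set by the rule. The centre of the peak was a median of 2.0 bp from the LPS3 centre in LPS1 and 3.0 bp in Apop3, the other narrow libraries. It was 31.5 bp away in LPS2, 30.0 bp in Apop1 and 26.5 bp in Apop2. In the wide libraries the centres fell on both sides of the LPS3 centre, and 1 edge of the peak, not both, was within 10 bp of that of the LPS3 peak in 66.1% of regions in LPS2, 76.5% in Apop1 and 73.0% in Apop2. At the 1372 regions with calls in all 9 replicates, 70.4%, 73.7% and 73.0% of the peaks of these libraries shared 1 edge, and the median centre distances were 31.0, 30.0 and 26.0 bp. Peak geometry at gained regions was thus close to that at regions bound in every library.

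**Figure D3:**
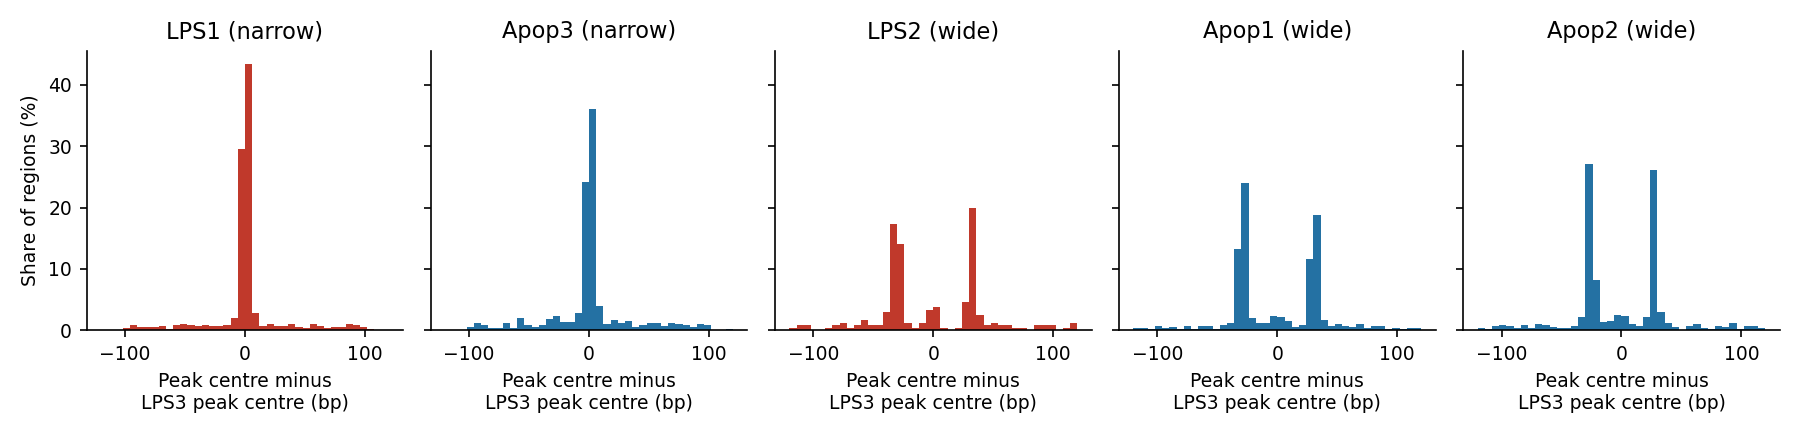
Distance of the peak centre in each other treated replicate from the LPS3 peak centre (bp, horizontal axis) at the gained regions, as a share of the regions with a peak in both (%, vertical axis), in bins of equal width over 120 bp on either side. Narrow libraries (LPS1, Apop3) peaked at 0, and wide libraries (LPS2, Apop1, Apop2) had a mode on each side, with median distances of 26.5 to 31.5 bp.

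Along the genome the gained regions lay mostly away from listed gene starts. Of the 1359, 553 (40.7%, Wilson interval 38.1% to 43.3%) were inside a protein-coding gene, against 41.6% of all regions. Inside or within 10000 bp of such a gene lay 738 (54.3%, 51.6% to 56.9%), against 51.9% of all regions. The list of starts was incomplete. Chromosome 18 had none, and some genes elsewhere had none either, so distances at them are too large. For example, the region inside Xkr4 was 14767986 bp from its nearest listed start. The median distance from the centre to the nearest listed protein-coding start was 50110 bp over 1312 regions, without chromosome 18. It was 60008 bp for regions gained with LPS only, 105015 bp for regions gained with apoptotic cells only, 75503 bp for regions called in all 9 replicates and 78764 bp for all regions. Within 1000 bp of a listed start lay 17 gained regions (1.30%), against 1.41% of all regions. Gained regions were thus nearer to listed starts at the median than the other sets, with no larger share right at them. These are counts of regions, and no test was run between the sets.

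**Figure D4:**
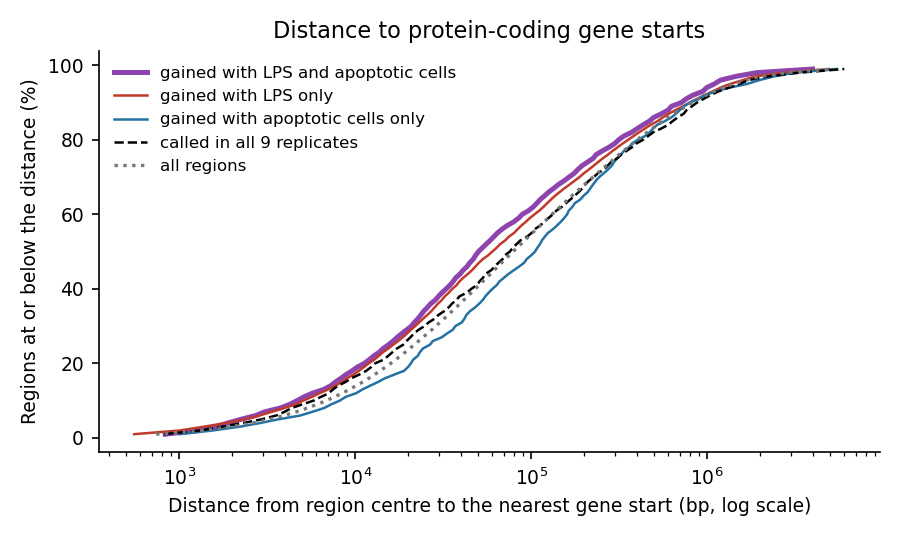
Percentage of regions (vertical axis) whose centre lay within a given distance of the nearest protein-coding gene start (bp, log scale, horizontal axis), for the regions gained with LPS and apoptotic cells and 4 other sets. The median was 50110 bp for the gained regions, the shortest of the 5, and 105015 bp for regions gained with apoptotic cells only. Only listed starts were used. Chromosome 18 had none and is left out, and some genes elsewhere had none either.

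The sex chromosomes held 83 gained regions on X (6.11%) and 34 on Y (2.50%), against 4.64% and 0.898% of all regions. Regions called in all 9 replicates had similar shares, 6.20% on X and 2.19% on Y. Regions gained with LPS only had 5.43% on X and 1.72% on Y. Those gained with apoptotic cells only had 3.57% and 0.369%, below the shares of all regions. Gained regions were scattered: 1258 had no other gained region within the next 100000 bp, and no stretch of that length held more than 3. A count of 3 was reached on X, with no protein-coding gene within 10000 bp, on chromosome 13 at Rreb1 and on chromosome 4 at Clstn1.

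At Rreb1, which encodes a zinc finger factor of the RAS pathway, 1 region (chr13:37775833-37776012) lay 2370 bp before the gene and 2 lay inside it. The first had a call in 5 replicates, with scores of 337.71 in LPS1, 491.59 in LPS3, 129.52 in Apop1, 175.18 in Apop2 and 165.47 in Apop3. Both regions inside the gene had 4 calls. At Clstn1, which encodes a membrane adaptor for kinesin cargo, all 3 regions lay inside the gene, between positions 149630020 and 149639797. The last of them (chr4:149639528-149639797) was also within 10000 bp of Pik3cd, the gene of the leukocyte PI3 kinase catalytic subunit p110 delta. It was called in LPS2 as well, with scores of 136.64, 126.89 and 209.56 in LPS1 to LPS3 and of 129.52 in Apop1 and 146.98 in Apop3.

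In all, 515 protein-coding genes had a gained region inside them, 35 of them 2 or more, and 4 of them 3, which were Clstn1, Gfra1, Fhit and Lrp1b. The genes with a region inside had a median length of 92594 bp, compared with 17149 bp for all protein-coding genes. Fhit and Lrp1b, with lengths of 1611970 and 2058309 bp, are among the long genes. Gene length thus moved with the presence of a region, and its part in which genes were met was not tested.

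Of the genes of inflammation and efferocytosis listed for these data, 6 of 236 (2.54%) had a gained region inside or within 10000 bp. Among all 21896 protein-coding genes, 822 (3.75%) did, so the listed genes as a group were met no more often than genes in general. A region of any kind lay within that distance of 233 of the 236. The 6 were Mertk, Tyro3 and Pros1 among 19 apoptotic cell receptors and bridging proteins, Elmo1 among 18 genes of engulfment and actin, Nfe2l2 among 18 genes of arginine, eicosanoid and antioxidant metabolism, and Ifnar2 among 16 interferon response genes. The 8464 regions gained with LPS only met 5 of the 19 receptor and bridging genes and 10 of the 18 engulfment genes, Pros1 and Elmo1 included. That larger set met 19.9% of the listed genes and 19.3% of all protein-coding genes. No gained region was found for the 16 AP-1 subunit genes, the 17 inflammatory cytokines, the 16 chemokines, the 15 NF-kB subunits and feedback genes, the 8 MAP kinase phosphatases or the 18 genes of TLR signalling. The same was so for the 14 genes of cholesterol efflux and lipid receptors, the 16 lysosomal genes, the 14 macrophage lineage factors, the 14 matrix proteases, the 15 genes of glycolysis and hypoxia, and the 13 genes for which the study used primers. At a share of 3.75%, lists this short often hold none, so these zeros do not set the classes apart. Regions gained with LPS only met 6 of the 17 cytokines and 2 of the 16 AP-1 genes, but 0 chemokines and 0 MAP kinase phosphatases. Leaving out UT3 raised the 6 listed genes to 17, leaving out LPS1 or LPS3 left 0, and leaving out Apop1 or Apop2 left 3. The count of 0 follows from the rule, since LPS2 had no peak at any gained region near these 6 genes.

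Pros1 encodes protein S, which bridges phosphatidylserine on dying cells to TAM receptors. Its gained region (chr16:62911774-62911945) lay inside the gene and had a call in 5 replicates. The scores were 222.56 in LPS1, 406.68 in LPS3, 255.22 in Apop1, 133.78 in Apop2 and 128.9 in Apop3. Among the Apop replicates Apop1 ranked this peak highest, at the 95.3rd percentile of its peaks, with Apop2 at the 49.9th and Apop3 at the 69.0th.

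Mertk and Tyro3 encode 2 of the TAM receptor kinases. The Mertk region (chr2:128808224-128808447) lay 5062 bp beyond the 3′ end of the gene and scored 163.1 in LPS1, 221.05 in LPS3, 159.52 in Apop2 and 111.75 in Apop3. Apop1 had no peak there. The Tyro3 region (chr2:119826267-119826503) lay 8163 bp beyond the 3′ end and scored 178.77 in LPS1, 344.84 in LPS3, 73.07 in Apop1 and 75.71 in Apop2. Apop3 had no peak there, and both Apop scores were low in their libraries, at the 11.5th and 9.24th percentile. Neither region was inside a gene, so that the receptors are named here by distance alone.

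Elmo1 encodes the partner of DOCK proteins in activating RAC during engulfment. A gained region (chr13:20353699-20353878) lay inside it, with scores of 200.47 in LPS1, 324.62 in LPS3, 129.52 in Apop1, 133.78 in Apop2 and 146.98 in Apop3. The Apop1 and Apop2 scores are the commonest ones of their libraries. Nfe2l2 encodes NRF2, the main regulator of antioxidant genes. Its region (chr2:75671838-75672148) lay 3365 bp beyond the 3′ end and nearer to another gene, Hnrnpa3, at 2431 bp. It scored 297.61 in LPS1, 179.38 in LPS3, 142.97 in Apop1 and 72.55 in Apop3, with no peak in Apop2.

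Ifnar2 encodes a subunit of the type I interferon receptor and stands next to Il10rb, the gene of a subunit of the IL-10 receptor, and each held a gained region. The region inside Ifnar2 (chr16:91397031-91397390) scored 178.77 in LPS1, 151.5 in LPS3, 73.07 in Apop1 and 133.78 in Apop2. The region inside Il10rb (chr16:91407338-91407720), which is 1749 bp beyond the end of Ifnar2, scored 159.0 in LPS1, 149.0 in LPS3, 113.77 in Apop1 and 82.64 in Apop2. Apop3 had no peak at either. LPS2 had no peak at any of the 7 regions near listed genes.

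**Figure D5:**
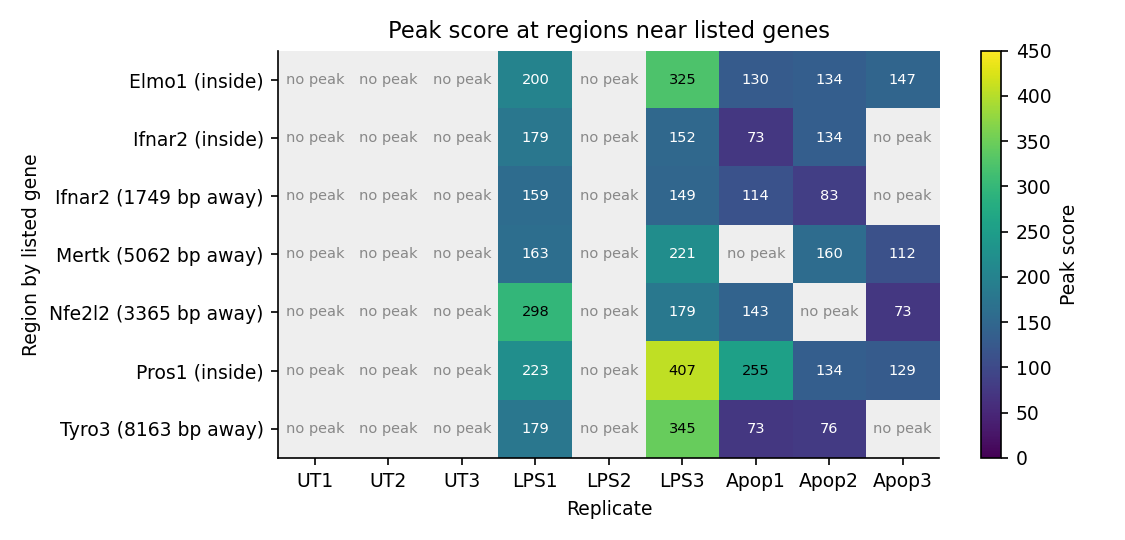
Peak score (colour and number, as deposited for each replicate) at the 7 gained regions inside or within 10000 bp of a listed gene (vertical axis) in the 9 replicates (horizontal axis); grey cells had no peak. The UT columns are empty by the rule, LPS2 is empty at all 7 regions, and each region lacked a peak in at most 1 Apop replicate.

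The 10 regions with calls in all 6 treated replicates and the highest median percentile, each score being ranked among the peaks of its own replicate, were spread over 10 chromosomes. The first of them (chr5:5500713-5500889) lay 4126 bp from Cldn12, a claudin gene, and scored 385.63, 294.52 and 448.8 in LPS1 to LPS3 and 299.8, 308.35 and 242.95 in Apop1 to Apop3. All 6 scores lay between the 97.1st and the 98.1st percentile of their libraries. The next (chr6:112694582-112694833) lay inside Rad18, the gene of a ubiquitin ligase of DNA damage tolerance, 1940.5 bp from the start at its centre. It scored 380.39, 263.83 and 505.37 in the LPS replicates and 295.47, 172.48 and 257.14 in the Apop replicates. Both regions are thus places where LPS2 had a high-ranking peak too, at the 98.1st and 96.5th percentile.

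The others of these 10 were weaker in LPS2. The region inside C77080 (chr4:129229321-129229705), whose centre was 1602 bp before a listed start, scored 409.93, 207.88 and 402.37 in the LPS replicates and 186.27, 262.7 and 283.45 in the Apop replicates. A region inside Thsd7b, which encodes a thrombospondin domain protein, scored 89.28 in LPS2 and 513.21 in LPS3. At Tasp1, the gene of the protease that cleaves MLL proteins, the region inside the gene scored 109.86 in LPS2, 279.02 in LPS1, 390.48 in LPS3, and 206.98 to 218.24 in Apop. Inside Sh3bgrl the scores were 290.79, 126.89 and 406.68 in the LPS replicates and 211.84, 133.78 and 223.11 in the Apop replicates. The other 4 had no gene within 10000 bp and lay nearest to Wdfy2 (21010 bp), Socs6 (147217 bp), Ptchd4 (162608 bp) and Gm20841 on the Y chromosome (207939 bp).

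The widest gained regions reached 766 bp, on chromosome 12 with no gene within 10000 bp, 747 bp inside Arl15 and 728 bp inside Tcf12, the gene of an E protein transcription factor. The median width over the 1359 was 183 bp. At Tcf12 the scores were 167.63 in LPS1, 97.44 in LPS3, 149.04 in Apop1 and 121.73 in Apop2. The Arl15 region was called in LPS2 and not in LPS1. It scored 250.6 in LPS2, 121.56 in LPS3, 67.34 in Apop1 and 171.59 in Apop3.

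The rule takes any score as a call, so some regions were in or out by a weak peak. For each gained region the deciding score was the lower of its second-highest LPS score and its second-highest Apop score, taken as deposited although replicates may not share a scale, and its median was 128.79, from 50.86 to 299.8. The gained regions nearest to the limit had deciding scores of 50.86, 51.09 and 51.11. The regions kept out by the weakest single unstimulated call had scores of 52.17, 55.41 and 55.96 there. Over the 2489 regions kept out by 1 unstimulated call, that call scored 52.17 to 487.57, with a median of 176.88. The unstimulated peaks that kept regions out were thus not confined to scores near the lower limit.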

How the data were processed

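FRA-1 was immunoprecipitated from peritoneal macrophages, and single reads of 100 bp were sequenced in 9 FRA-1 libraries, 3 per condition, from 3 mice that recur in all conditions. The submitters' processing notes name BWA 0.7.14, bedtools and the build mm10 (GRCm38). The peak caller behind the deposited tables is not given in the sources used here. The paper's methods name Trimmomatic, Bowtie2 and MACS2 for a later re-analysis of the reads, which may not be how the tables were made. The authors deposited 1 table per condition, which cuts the peaks of the 3 replicates into segments and gives for each segment the peak score of every replicate, with -1 where that replicate had no peak. The meaning of the score is not stated. The deposited scores are not read counts, so that depth and counting error were unknown and no test on reads could be made. The authors' gene assignment column was used only as an alternative. The 3 pooled input samples were not analysed here. For 1 LPS sample the sample record says that raw data were not available.

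Repeated rows were read once, segments that overlapped or touched were merged into regions over all conditions, and a replicate's peak was rebuilt from adjoining segments of equal score. Positions are 1-based on mm10. Genes and promoter windows came from RefSeq tables of GRCm38.p6, by symbol and coordinates, with protein-coding genes used for distances. Percentiles are ranks of a score among all peaks of its replicate. Intervals of shares are Wilson intervals at 95% and cover counting error only. The gained regions and the 16 gene lists were chosen with earlier results of these data known. Of 238 listed symbols, 2 are not protein-coding in RefSeq and were left out. Named were the 10 regions with most calls and the highest median percentile, those within 10000 bp of a listed gene, those at promoter windows, the widest 3 and the places with most regions. Entpd1 and the genes with 3 regions were named after their values were seen. Tests were not run, because the calls chose the regions. The region merging was tested on simulated peaks. Alternatives were a stricter score, all replicates, shared bases, distances, the authors' assignment and leaving out each replicate. Analyses used Python 3.11.15, pandas 2.3.3 and numpy 2.4.6.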

Additional observations from a re-analysis of the deposited data

How the results depend on the processing

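The number of gained regions was 1011 with scores of at least 100, 1346 where a base had to be shared by the peaks and 1292 with no unstimulated call within 1000 bp. It fell to 607 with scores above each replicate's median, of which 336 were among the 1359, and to 79 with all 6 treated replicates required. Leaving out each replicate in turn gave 226 to 3587, lowest without LPS3 and highest without UT3. Alternatives chosen after seeing the data gave 3569 with UT3 and LPS2 left out together, 723 within the wide class and 2070 within the narrow class. The share inside or near a gene was 49.96% within 5000 bp, 70.0% within 50000 bp and 6.84% by the authors' assignment, which covered 5.44% of all regions, and it was 53.6% to 55.5% when each replicate was left out. Listed genes with a region numbered 4 within 5000 bp, 18 within 50000 bp and 0 by the authors' assignment, and 0 to 17 when each replicate was left out, an alternative also chosen after seeing the data. With scores of at least 100 the mean left-out shares were 37.3% in UT, 73.1% in LPS and 65.5% in Apop. With all scores they were 36.1%, 74.6% and 64.4%. The cause of these shifts was not tested. No paired analysis was possible because mice are not named in the headings of the scores. The planned count of AP-1 motifs in the regions was not run, since no genome sequence was given. Unknown depth limits all statements on the absence of a peak.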
